A study of Arabidopsis thaliana with 6 samples.

Results

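HSP101, HSP70 and HSP90.1 are the heat-inducible cytosolic chaperones of Arabidopsis thaliana that were followed here, each through 1 probe set of the deposited Affymetrix table. They are the 3 members, out of 22746 tested probe sets, and all 3 were found in the table. They are probe sets 260248_at (HSP101), 256245_at (HSP70) and 248332_at (HSP90.1), selected on their difference between NJ15 and mock arrays, so that difference is given as a description, without a test. The platform annotation used here lists none of the 3 probe sets. Their names and loci, AT1G74310 on chromosome 1 for HSP101, AT3G12580 on chromosome 3 for HSP70 and AT5G52640 on chromosome 5 for HSP90.1, were supplied with the choice of members. A gene table lists the same symbols for these loci but does not link them to the probe sets. Whether the probe sets also take up transcripts of closely related family members was not tested.

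The arrays measured total RNA of whole Col-0 wild-type seedlings that had stood upright on MS plates for 4 days. The 3 NJ15 samples were sprayed with 10 µM NJ15, a dichlorophenyl tetrazole that carries an acetic acid ethyl ester, and the 3 mock samples with mock solution. All 6 were then rotated by 90 degrees to set off gravitropic bending and harvested 8 h later. By their labels the samples of a group are biological replicates, and with 3 arrays a group the precision is limited by that number. In whole seedlings, more cells holding a transcript and more transcript per cell cannot be told apart.

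Chaperones bind unfolded or aggregated proteins and help them refold. HSP101 belongs to the ClpB class of ring-shaped ATPases, which pull single chains out of aggregates, and in Arabidopsis it is known as a requirement for acquired heat tolerance. HSP70 proteins hold exposed hydrophobic stretches in an ATP-driven cycle, helped by DnaJ proteins and exchange factors, and work together with HSP101 on aggregates and with HSP90 on folding. HSP90 proteins complete the folding of signalling proteins such as kinases and receptors, and HSP90.1 is the strongly heat-induced cytosolic member. In plants, heat shock factors bind the promoters of such genes after heat and other stresses that unfold proteins.

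All 3 chaperone transcripts stood far higher in every NJ15 array than in any mock array. On the deposited log2 scale the difference between group means was 4.28 for HSP70, 3.43 for HSP90.1 and 2.95 for HSP101. If the values are log2, as their range implies, these correspond to 19.4-fold, 10.8-fold and 7.73-fold more signal in NJ15 seedlings. Groups did not overlap with NJ15 higher in 6.51% of the 6144 varying probe sets, those whose 6 values spanned more than 0.01, and nothing is read from the members' place in that share because the contrast chose them.

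HSP101, the disaggregase, had log2 levels of 9.76, 10.16 and 9.19 in NJ15 replicates 1, 2 and 3, against 6.64, 6.89 and 6.73 in mock replicates 1, 2 and 3. The mean was 9.70 ± 0.49 in NJ15 and 6.75 ± 0.12 in mock seedlings (SD, n = 3 each). The lowest NJ15 array lay 2.30 above the highest mock array. NJ15 replicate 2 was the highest and NJ15 replicate 3 the lowest, while the mock arrays stayed close together. Set against the mock mean, the 3 NJ15 arrays were higher by 3.01, 3.41 and 2.44, or 8.04-fold, 10.6-fold and 5.41-fold.

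HSP70, the cytosolic member whose transcript is induced by heat, had log2 levels of 12.96, 12.24 and 12.46 in NJ15 replicates 1, 2 and 3, against 8.40, 8.48 and 7.93 in mock replicates 1, 2 and 3. The mean was 12.55 ± 0.37 in NJ15 and 8.27 ± 0.30 in mock seedlings (SD, n = 3 each), and the groups were 3.75 apart at their closest arrays. NJ15 replicate 1 was the highest and NJ15 replicate 2 the lowest of its group, and mock replicate 3 was the lowest array of all. Over the mock mean the NJ15 arrays were higher by 4.69, 3.96 and 4.19, or 25.8-fold, 15.6-fold and 18.2-fold. HSP70 had the widest distance between the groups of the 3 genes, and every one of its NJ15 arrays exceeded the mock mean by more than any NJ15 array did for HSP90.1 or HSP101.

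HSP90.1 had log2 levels of 10.62, 10.22 and 10.29 in NJ15 replicates 1, 2 and 3, against 7.04, 7.05 and 6.75 in mock replicates 1, 2 and 3. The mean was 10.37 ± 0.21 in NJ15 and 6.94 ± 0.17 in mock seedlings (SD, n = 3 each), with 3.18 between the closest arrays of the groups. NJ15 replicate 1 was again the highest array and mock replicate 3 the lowest. The NJ15 arrays stood 3.67, 3.28 and 3.34 above the mock mean, or 12.7-fold, 9.69-fold and 10.1-fold.

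**Figure D1:**
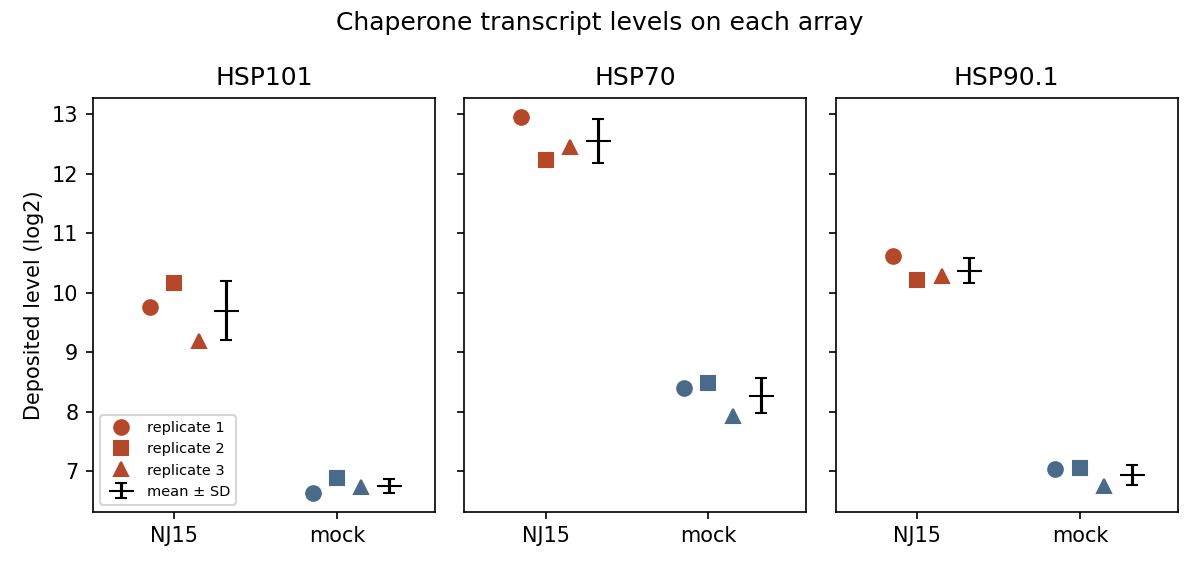
Deposited log2 level of HSP101, HSP70 and HSP90.1 on each array, with NJ15 arrays left of mock arrays, marker shape for the replicate number, and the mean with SD (n = 3) beside each group. In each panel the NJ15 arrays lie above all mock arrays, by 2.30, 3.75 and 3.18 at the closest; levels of different panels are different probe sets and are not to be compared.

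The 3 genes differed in how even the NJ15 arrays were. The range over NJ15 arrays was 33.0% of the group difference for HSP101, 17.0% for HSP70 and 11.5% for HSP90.1. The pooled within-group SD was 0.36, 0.34 and 0.19 for the same genes, against a median of 0.17 over the varying probe sets. HSP90.1 was therefore about as steady as a typical varying probe set, and the other two scattered more.

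They also differed in which NJ15 array was highest. The level in NJ15 replicate 2 minus that in NJ15 replicate 1 was 0.40 for HSP101, -0.73 for HSP70 and -0.39 for HSP90.1. HSP70 and HSP90.1 thus shared replicate 1 as the highest NJ15 array, while HSP101 had the order 2, 1, 3. Replicate 2 minus replicate 3 was only -0.22 for HSP70 and -0.07 for HSP90.1. Both values are smaller in size than the pooled within-group SD, so the order of these 2 arrays is not read. With 3 arrays in the group this split was not tested.

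Among all varying probe sets, HSP70 had the second largest difference in favour of NJ15, HSP90.1 the sixth and HSP101 the tenth. The largest difference was 4.62, carried by a probe set without a gene name here. Of the 6144 varying probe sets, 163 (2.65%) were higher in NJ15 by 1 or more and 23 were lower by 1 or more, and 90% of the differences lay between -0.33 and 0.57. These places describe the choice of the genes and support nothing further.

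**Figure D2:**
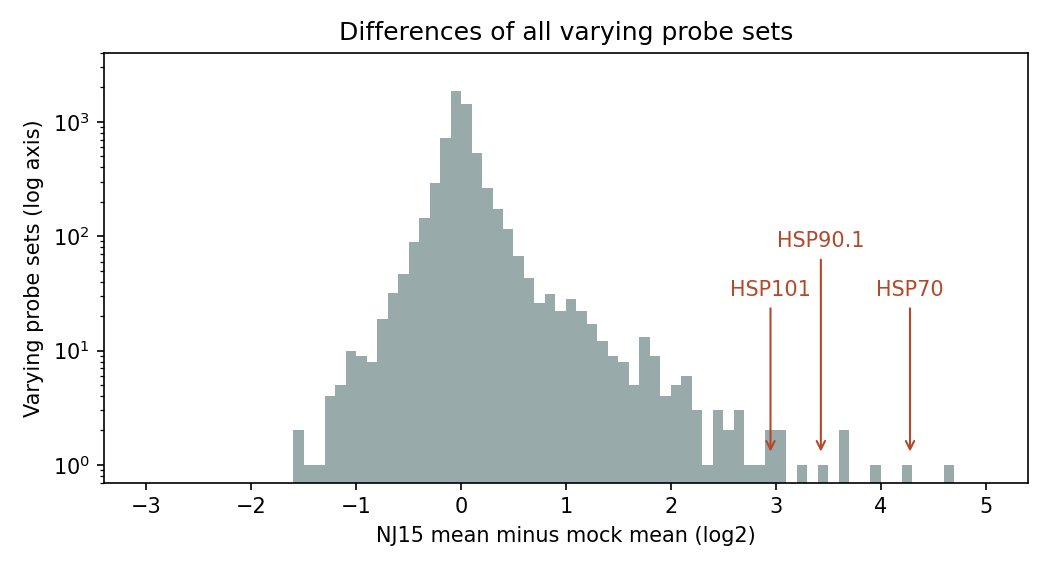
Histogram of the NJ15 mean minus the mock mean (log2) for the 6144 varying probe sets, with the count on a log axis and arrows at the 3 chaperones. The bulk lies near 0, with a median of -0.01, and HSP101, HSP90.1 and HSP70 lie in the sparse right tail at 2.95, 3.43 and 4.28.

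Likeness of profiles was measured as the root mean square difference over the 6 arrays between 2 probe sets, each taken relative to its own mean. Between HSP101 and HSP90.1 it was 0.41, between HSP70 and HSP90.1 0.44, and between HSP101 and HSP70 0.79. For HSP90.1, HSP101 was the third nearest and HSP70 the fifth nearest of the other 6143 varying probe sets. For HSP101, HSP90.1 was the fourth nearest and HSP70 only the 29th. A large difference between groups brings probe sets close by this measure, so the closeness partly restates how the genes were chosen.

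Among probe sets with 1 gene name, the nearest to both HSP70 and HSP90.1 was AT5G51440, which encodes the mitochondrial small heat shock protein HSP23.5, at 0.41 and 0.34. AT5G51440 had log2 levels of 10.30, 9.20 and 9.13 in NJ15 replicates 1, 2 and 3, against 6.24, 6.19 and 5.36 in mock replicates 1, 2 and 3. As with HSP70 and HSP90.1, NJ15 replicate 1 was its highest array and mock replicate 3 its lowest.

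The nearest named gene to HSP101 was AT2G20560, a DnaJ protein, at 0.34, with log2 levels of 8.74, 9.32 and 8.61 in NJ15 replicates 1, 2 and 3, against 6.69, 6.30 and 6.30 in mock replicates 1, 2 and 3. It shared with HSP101 the NJ15 array order 2, 1, 3. The cytosolic class I small heat shock protein AT2G29500 (HSP17.6B) followed at 0.40, the immunophilin AT5G48570 (ROF2) at 0.41 and the lipid droplet protein AT1G67360 at 0.49. AT5G48570 and AT2G20560 were among the 4 nearest named genes of all 3 chaperones, at 0.86 and 1.01 from HSP70 and 0.46 and 0.58 from HSP90.1. The list of HSP70 was completed by AT2G29500 at 1.08 and that of HSP90.1 by AT3G14200 at 0.70. No named gene but AT5G51440 came within 0.8 of HSP70. Probe sets without a single gene name lay among these neighbours, and the members themselves are counted with them: 3 for HSP101, 6 for HSP70 and 5 for HSP90.1.

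**Figure D3:**
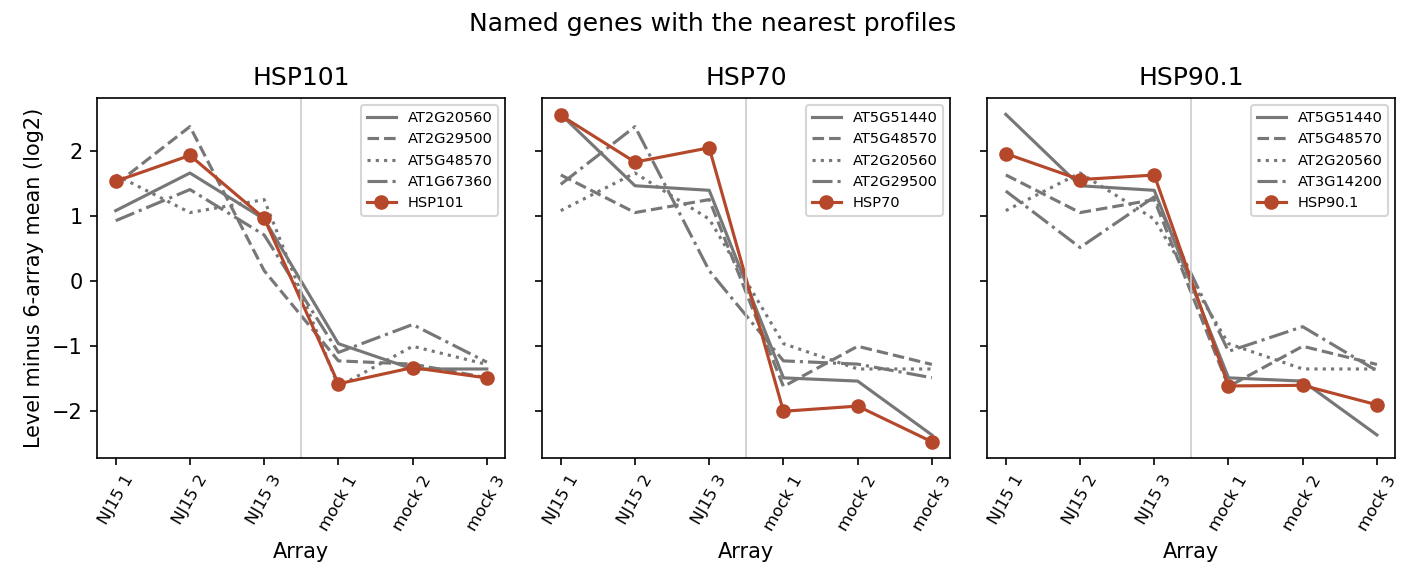
Log2 level minus the mean of the 6 arrays for each chaperone (coloured points) and its 4 nearest genes with a single name (grey lines), with NJ15 arrays left and mock arrays right of the divider; lines join arrays only to guide the eye. The HSP90.1 line runs beside AT5G51440 at a root mean square difference of 0.34, and the HSP70 line runs beside the same gene at 0.41, with its other 3 named neighbours at 0.86 or more.

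The relatives of the 3 chaperones could be read only in part. Of 113 other loci in 9 lists of chaperones, co-chaperones, heat shock regulators, small heat shock proteins, heat-induced, endoplasmic reticulum and organelle folding genes, 31 could be matched to a probe set, and 23 of those showed values that varied. None of the 5 other ClpB and Clp genes, the 6 other HSP90 genes or the 23 heat shock factors and regulators could be matched, so the steady HSP90 forms and the factors known to act on these promoters were not analysed here. In the limma fit over all 22746 probe sets, 1 of the 31 was called higher in NJ15 and 0 lower. Of all probe sets, 0.0835% were called higher and 0.11% lower. Of those 44 calls, 40 fell on probe sets whose values did not vary, so these shares are a poor background for varying genes. With the fit limited to varying probe sets, where 0.0651% were called higher, 2 of the 23 were called higher and 0 lower (limma). Unadjusted, 13 of the 23 had p under 0.05 in the fit over all probe sets, against 447 of the 6144 varying probe sets (7.28%) and 1253 of all 22746 (5.51%). The lists were written with earlier results of these data known. An excess over the shares of all probe sets, here and below, may therefore partly restate that choice.

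Within the HSP70 family, 4 of the 17 other genes were measured. AT3G09440 (HSC70-3), a cytosolic form regarded as constitutive, had log2 levels of 11.30, 10.53 and 11.10 in NJ15 replicates 1, 2 and 3, against 9.71, 9.96 and 9.48 in mock replicates 1, 2 and 3. Its groups did not overlap, with NJ15 higher, as in 6.51% of varying probe sets. The log2 fold change of AT3G09440, 1.26 (SE 0.26), did not pass (limma, adjusted p = 0.67). NJ15 replicate 2 was its lowest NJ15 array, as for HSP70. The cytosolic gene AT5G02490 (HSC70-2) had a log2 fold change of 0.41 (SE 0.10), also without passing (limma, adjusted p = 0.715). AT1G11660 and AT4G16660 of the HSP110-like branch were flat, meaning that their 6 values spanned no more than 0.01, and nothing can be said of a change in them. HSP70 had a difference of 4.28 where its 2 varying relatives had 1.26 and 0.41. HSP70 was chosen on this contrast, so its larger difference partly restates the choice. The differences between these genes were not tested.

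Of the 20 co-chaperones of HSP70 and HSP90, 11 were measured, 8 varied, and their median log2 difference was 1.36, against -0.01 over all varying probe sets. HOP3, which bridges HSP70 and HSP90, rose in NJ15 seedlings by 2.03 (SE 0.08) in the fit over all probe sets (limma, adjusted p = 0.0456) and in the fit over varying ones (adjusted p = 0.00533). Its levels were 8.68, 8.78 and 8.57 in NJ15 replicates 1, 2 and 3, against 6.53, 6.73 and 6.69 in mock replicates 1, 2 and 3, the smallest spread over NJ15 arrays among the 10 listed heat genes that were higher by 1 or more with the groups apart. The call over all probe sets was lost when any 1 array was left out, after quantile normalization, without low means and with the trended robust prior (limma, adjusted p between 0.0653 and 0.172). Over varying probe sets it was kept without mock replicate 3 and lost without any other single array. With the replicate block the HOP3 call was lost over all probe sets (limma, adjusted p = 0.554) and over varying ones (adjusted p = 0.162). Fes1A, an HSP70 nucleotide exchange factor, had a log2 fold change of 1.92 (SE 0.15) that passed over varying probe sets (limma, adjusted p = 0.0463) and not over all (adjusted p = 0.0862). That call was lost when any 1 array was left out of the fit over varying probe sets, and with the replicate block (limma, adjusted p = 0.22). ROF2, at 2.62, the DnaJ protein AT2G20560, at 2.46, and AT3G12050, an activator of the HSP90 ATPase (AHA1), at 0.80, passed in neither fit (limma, adjusted p = 0.154, 0.189 and 0.746 over all probe sets and 0.0509, 0.055 and 0.374 over varying ones). In these 3 genes too, every NJ15 array lay above every mock array, as in 6.51% of varying probe sets. The remaining varying genes of the list had log2 fold changes between -0.01 and 0.47, and none passed in either fit (limma). Over the whole list, the groups were apart with NJ15 higher in 6 of the 8 varying genes. The 3 flat genes could not be read for a change.

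Of the 17 small heat shock proteins, which hold unfolding proteins in a state from which HSP70 and HSP101 can rescue them, 9 were measured and 8 varied, with a median log2 difference of 1.6. None passed in either fit (limma), and 5 of the 8 had an unadjusted p under 0.05 over all probe sets, as did 7.28% of the varying probe sets. The mitochondrial HSP23.5 had the largest log2 fold change, 3.61, followed by AT1G54050 (HSP17.4-CIII) at 3.03, AT2G29500 (HSP17.6B) at 2.68, AT2G19310 (HSP18.5) at 1.70 and the peroxisomal AT5G37670 (HSP15.7) at 1.5. Their limma adjusted p over all probe sets lay between 0.366 for HSP23.5 and 0.83 for HSP17.4-CIII, and every NJ15 array of these 5 genes lay above every mock array, as in 6.51% of varying probe sets. The other 3 varying genes of the list had log2 fold changes between -0.48 and 0.49 with overlapping groups. HSP17.4-CIII had levels of 8.36, 11.24 and 7.69 in NJ15 replicates 1, 2 and 3. Its levels in mock replicates 1, 2 and 3 were 6.15, 5.95 and 6.09. The size of its difference depended on NJ15 replicate 2, falling from 3.03 to 1.96 without that array. Without NJ15 replicate 2 the differences of the members were 2.72 for HSP101, 4.44 for HSP70 and 3.51 for HSP90.1.

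Across the 9 lists, 10 genes were higher in NJ15 by 1 or more with the groups apart, against a background of 1.82% of varying probe sets. NJ15 replicate 1 was the highest array in 4 of the 10, as in HSP70 and HSP90.1: HSP23.5, HSC70-3, HSP18.5 and ROF2. NJ15 replicate 2 was the highest in the other 6, as in HSP101: HOP3, Fes1A, AT2G20560, HSP17.6B, HSP15.7 and HSP17.4-CIII. Over all 112 varying probe sets that far apart, NJ15 replicates 1, 2 and 3 were highest in 44.6%, 48.2% and 7.14%, and the heat genes were not tested against those shares. The log2 level in NJ15 replicate 2 minus that in NJ15 replicate 1 lay between -1.10 in HSP23.5 and 2.88 in HSP17.4-CIII.

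**Figure D4:**
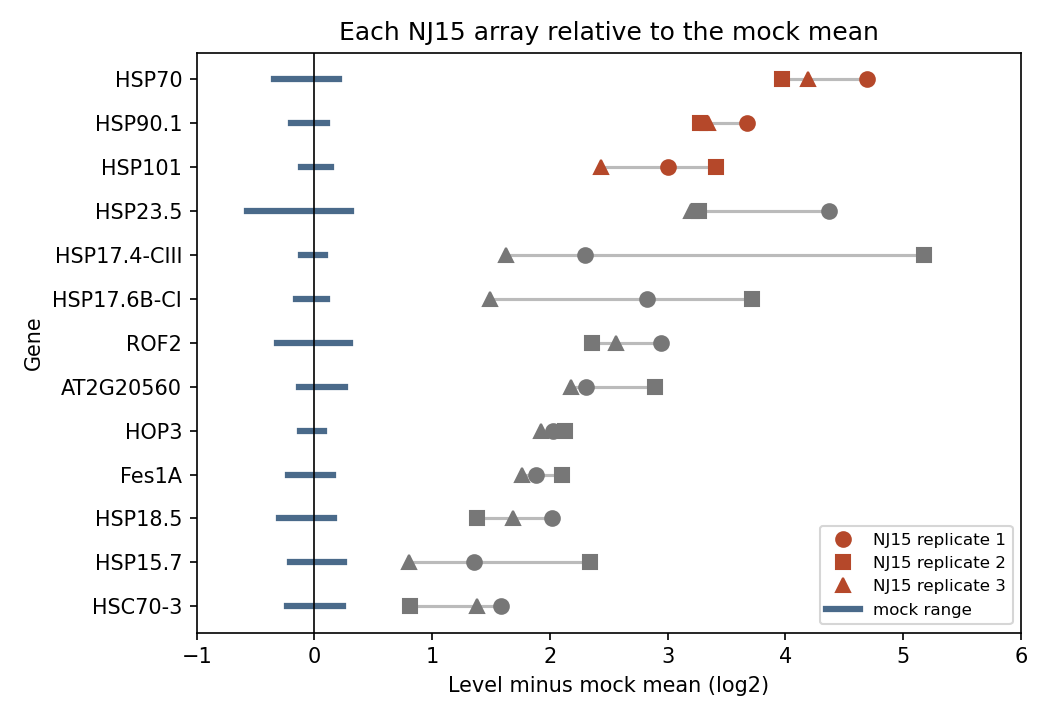
Level on each NJ15 array minus the mock mean (log2) for the 3 chaperones (coloured, top rows) and the 10 other heat genes that were higher by 1 or more with the groups apart (grey), with the range of the mock arrays as a blue bar around 0. HSP70 lies farthest right of the chaperones at 3.96 to 4.69, HSP90.1 has the tightest NJ15 arrays of the 3, and HSP17.4-CIII has the widest spread.

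Of the endoplasmic reticulum list, 4 of 12 genes were measured and the 3 that varied, the calreticulin CRT1B, the DnaJ protein ERDJ3B and the transcription factor BZIP60, had log2 fold changes of -0.03, 0.08 and 0.06, none of which passed (limma, adjusted p = 0.933, 1 and 0.992). ERDJ3B turned to -0.03 without NJ15 replicate 1 and BZIP60 to -0.01 without mock replicate 3. The plastid chaperonin subunit Cpn60beta2 had a log2 fold change of 0.91 that did not pass (adjusted p = 0.943) and was 0.26 without mock replicate 1. HSA32, which in Arabidopsis is known to extend heat tolerance together with HSP101, had levels of 7.35, 7.32 and 7.18 in NJ15 replicates 1, 2 and 3, against 7.04, 7.12 and 7.26 in mock replicates 1, 2 and 3. Its groups overlapped and its log2 fold change of 0.14 did not pass (limma, adjusted p = 0.899), and was 0.09 without mock replicate 1.

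Sample composition and mock replicate 1 were set beside these values. The 4 varying green tissue markers, LHCB4.1, LHCB4.2, RCA and PRK, of 5 measured among 21 listed, had mean log2 levels of 11.01, 11.62 and 11.59 in NJ15 replicates 1, 2 and 3, against 10.75, 11.44 and 12.06 in mock replicates 1, 2 and 3. Green tissue was thus present on every array, and the groups overlapped. The root hair markers EXPA7 and EXPA18, the only measured ones of 7 root markers, were flat, so the share of root tissue was not analysed here. Among the housekeeping genes, 6 of 11 were measured, 5 were flat, and PEX4 spanned 9.51 to 9.57.

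Mock replicate 1 had the lowest green marker mean and also the highest mock level of STZ, a touch- and stress-induced zinc finger gene, whose levels were 10.80, 11.86 and 9.54 in NJ15 replicates 1, 2 and 3, against 9.93, 6.94 and 6.90 in mock replicates 1, 2 and 3. The STZ level of mock replicate 1 lay within the NJ15 range. Among the mock arrays, replicate 1 was the lowest for HSP101 and lay between the other two for HSP70 and HSP90.1. Without mock replicate 1 the differences were 2.90 for HSP101, 4.35 for HSP70 and 3.48 for HSP90.1.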

How the data were processed

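Total RNA was biotin-labelled with an Affymetrix kit and hybridised, per the labels' protocols. The deposited values are taken as log2 expression, 1 per probe set and array, from their range of 5.30 to 14.04. The submitters' processing notes name R 2.7.2; background correction and normalization stay not given in the sources, and signal over background is unknown. Of 22746 tested probe sets (64 controls left out), 16602 (73%) were flat, and the step that made them flat was not tested.

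Values were used as deposited. The contrast of NJ15 against mock was fitted in R 4.3.3 with limma 3.58.1 (lmFit, eBayes, two-sided). P-values were adjusted after Benjamini and Hochberg over the whole set of tested probe sets and called under 0.05; flat probe sets take part, and 40 of the 44 calls fell on them. On simulated data the fit had to return planted differences on average, and no requirement was set on its calls. The members and the 13 gene lists were chosen with earlier results of these data known. Names came from the platform annotation (13513 probe sets with 1 gene, 503 with several, 8730 unlisted), updated through the TAIR10.1 gene table; the highest-mean probe set stood for a gene. Named genes were the members, measured genes of their families, up to 5 varying genes of each other list by size of difference, and the 4 nearest named profiles per member. STZ falls outside these rules and was added to describe mock replicate 1. Same-numbered NJ15 and mock arrays had deviations correlated at 0.586, -0.305 and 0.192, and the other pairs at -0.523 to 0.417. Deviations from a group mean cancel within the group, so these values do not settle whether replicate numbers are pairs. The main fit did not take them as pairs. Alternatives were quantile normalization, centring on the median of varying probe sets, each array left out, the replicate block, a filter on low means, a trended robust prior, varying probe sets only, group medians and any probe set of a gene. Figures were drawn with matplotlib 3.10.9.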

Additional observations from a re-analysis of the deposited data

How the results depend on the processing

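Over 10 alternatives the 3 chaperone differences lay between 2.72 and 3.21 for HSP101, 4.06 and 4.44 for HSP70, and 3.25 and 3.51 for HSP90.1. Leaving out 1 of 3 arrays cannot reverse groups that do not overlap, nor move a difference by 1 within-group SD. The blocked means equal the plain ones, 2.95, 4.28 and 3.43, by design. Such settings therefore give the size of a shift and are no test of direction. Counts of calls were not stable (limma), and apart from fits on fewer probe sets or arrays the cause was not tested. The 44 calls over all probe sets became 0 after quantile normalization (3347 with an unadjusted p under 0.05), 10 after centring, 1 without low means (993 unadjusted), 0 with the trended robust prior (886 unadjusted), 4 over varying probe sets, and 0 with the replicate block over all (1207 unadjusted) or over varying ones (449 unadjusted). Leaving out single arrays gave 4 to 15 calls over all probe sets and 0 to 3 over varying ones. The 1 called heat list gene, HOP3, became 3 after centring (HOP3, Fes1A, ROF2), 2 over varying probe sets, and 0 after quantile normalization, without low means, with the robust prior and with either block, with 10 to 15 genes at an unadjusted p under 0.05. Leaving out single arrays gave 0 over all probe sets and 0 to 1 over varying ones. The 10 heat genes apart by 1 or more were 10 to 11 when single arrays were left out, against backgrounds of 1.71% to 3.08%. Of the named genes, ERDJ3B ran from -0.03 to 0.21, BZIP60 from -0.01 to 0.12, HSA32 from 0.09 to 0.2, CRT1B from -0.05 to -0.02 and Cpn60beta2 from 0.26 to 1.27 when single arrays were left out. The fits limited to varying probe sets with arrays left out or blocked, and this last count, were added after the data were seen.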
